A study of Schizosaccharomyces pombe with 12 samples.

Results

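Small nuclear RNAs (snRNAs) and small nucleolar RNAs (snoRNAs) of the fission yeast Schizosaccharomyces pombe were followed across 6 conditions in RNA-seq counts per gene. The members were the features of the gene count table whose identifier begins with SPSNORNA or SPSNRNA, and 60 of 7268 features met that rule. By the words of the RefSeq annotation, 5 of the 60 were spliceosomal snRNAs, 2 were copies of the U3 snoRNA and 19 were box H/ACA snoRNAs. The 34 other snoRNAs were annotated without a box class, except for snoZ30, which is named there as C/D. The conditions were wild type (WT), lsd1-ΔHMG and set1Δ cells, each at 30 °C and after 2 hours at 37 °C, with 2 biological replicates per condition and 12 libraries in all. Set1 is the histone H3K4 methyltransferase of this yeast and set1Δ lacks its gene. Lsd1 is a histone demethylase, and in lsd1-ΔHMG the C-terminal stretch that holds the HMG box is deleted. The study's strain table lists lsd1-ΔHMG with an FTP tag, and which of the listed strains gave the libraries is not given in the sources used here.

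The U1, U2, U4, U5 and U6 snRNAs are the RNA cores of the spliceosome, where U2 pairs with the branch point of the intron and U5 holds the exons together. Box C/D snoRNAs guide 2′-O-methylation and box H/ACA snoRNAs guide pseudouridylation of ribosomal RNA, whereas U3, U14 and snR30 (also called U17) are needed for the cleavages that release the small-subunit rRNA. SnoRNAs arise from their own promoters, from precursors that hold several of them, or from introns of protein-coding genes, and are trimmed by exonucleases, among them the nuclear exosome. Mature snRNAs and snoRNAs have no long poly(A) tail.

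The following sequences show the RNAs on which the results turn, written 5′ to 3′ as DNA from the RefSeq annotation of build ASM294v3, whereas the counts were made on ASM294v2. U2 (snu2, chromosome I, minus strand) and U5 (snu5, chromosome II, plus strand) were the snRNAs with most counts, and the capitals mark GTAGTA, the stretch of U2 that pairs with the branch point, and GCCTTTTAC in the conserved loop of U5. SnR33 and snR36 (both chromosome II, minus strand) are box H/ACA snoRNAs with an ACA in capitals near the 3′ end. SnoZ4 and snoZ8 (chromosome I, plus strand) lie in the precursor snoZ, snoU14 (chromosome II, plus strand) overlaps no other feature on its strand, and snoU24b (chromosome I, plus strand) lies in an intron of cpc2. In these last 4, capitals mark a C box (TGATGA) in the first 20 bases and a D box (CTGA) in the last 20 where these exact letters were found.
snu2: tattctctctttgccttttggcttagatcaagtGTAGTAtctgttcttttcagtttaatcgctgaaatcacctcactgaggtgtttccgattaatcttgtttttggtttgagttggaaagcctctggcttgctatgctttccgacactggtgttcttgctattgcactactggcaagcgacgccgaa
snu5: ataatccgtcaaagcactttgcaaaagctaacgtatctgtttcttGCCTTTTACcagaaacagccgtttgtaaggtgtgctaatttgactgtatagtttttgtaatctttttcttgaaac
snR33: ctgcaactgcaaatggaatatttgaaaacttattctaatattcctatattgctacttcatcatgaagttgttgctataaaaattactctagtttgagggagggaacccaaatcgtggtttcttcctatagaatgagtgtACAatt
snR36: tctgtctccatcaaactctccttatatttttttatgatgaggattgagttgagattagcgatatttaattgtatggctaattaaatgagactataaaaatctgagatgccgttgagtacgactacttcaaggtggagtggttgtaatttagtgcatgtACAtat
snoZ4: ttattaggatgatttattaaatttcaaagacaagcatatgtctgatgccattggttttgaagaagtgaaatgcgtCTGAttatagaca
snoZ8: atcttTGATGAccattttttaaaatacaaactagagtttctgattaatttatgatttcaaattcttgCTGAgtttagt
snoU14: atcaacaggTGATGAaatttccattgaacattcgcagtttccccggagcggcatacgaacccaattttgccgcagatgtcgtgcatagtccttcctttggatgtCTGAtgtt
snoU24b: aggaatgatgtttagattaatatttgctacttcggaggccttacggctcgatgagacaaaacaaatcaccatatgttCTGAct

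On the gene's own strand, TGATGA within the first 20 bases and CTGA within the last 20 were sought. Both were found in 18 of the 34 other snoRNAs and in 0 of the 19 box H/ACA snoRNAs. CTGA, with or without TGATGA, was found there in 29 of the 34 and in 5.95% of 605 other features of 47 to 488 bases. These are the lengths that the members span. An ACA within the last 8 bases was found in 14 of the 19 box H/ACA snoRNAs (73.7%), and in 5.79% of the same 605 features. The HomolD box (CAGTCACA, on either strand), a promoter element of ribosomal protein genes in this yeast, was found from 250 bases before to 50 after the annotated start in 11 of 60 members (18.3%) and in 2.59% of 6846 annotated features. TATAAA was found in such a window in 32 of 60 members (53.3%) and in 47.5% of all features. A match describes these letters only.

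Library totals ran from 27642384 to 34843653 counts, and members took between 0.0533% and 0.16% of them. Values are given as CPM, counts scaled to a common library size with TMM factors, and of the 60 members 58 passed the filter on low counts among 6904 features tested. A feature was called where edgeR's quasi-likelihood test gave an adjusted p below 0.05 and the log2 fold change was at least 1 in size. The targeted gene set1 stood at 14.4 and 14.3 CPM in set1Δ at 30 °C and at 76.7 and 79.8 in WT at 30 °C. The heat-shock gene hsp16 went against the WT temperature labels: it stood at 39422 and 36205 CPM in the WT libraries labelled 30 °C and at 4533 and 5798 in those labelled 37 °C. In lsd1-ΔHMG and set1Δ hsp16 was higher at 37 °C. Every comparison with WT is therefore a comparison with the libraries labelled so. The changes within each mutant and between the mutants do not contrast WT means. All 12 libraries share the scaling, the filter and the estimate of spread, so WT libraries still enter those fits.

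The 2 replicates of lsd1-ΔHMG at 30 °C stood apart from each other in these RNAs. Of the tested members, 14 of 58 differed between them by more than 1 on the log2 scale of CPM, against 0 to 4 in the other conditions. The median of replicate 2 over replicate 1 was 0.86 on that scale for the 33 members with no same-strand overlap, -0.045 for the 10 in introns and -0.053 for all features. Of the 60 members, 35 overlapped no other feature on their strand, 10 lay in introns of protein-coding genes and 15 lay within or across a non-coding transcript, which for most was a precursor. The authors' counting divided a read among overlapping features, and 22 members, U5 and snR36 among them, had an annotated feature on the opposite strand. Whether strand was used in making the deposited table is not stated, so the values of these members and of the 25 with a same-strand overlap are uncertain.

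Levels can be set side by side only per length. U14 was highest with a mean of 878 CPM per kb over the 12 libraries, followed by snoZ4 with 853, snR30 with 603, snr79 with 525 and snR95 with 451, and the other members had between 0.535 and 275. SnR95 and snr79 had their lowest mean in lsd1-ΔHMG at 37 °C and did not pass the fold limit in the comparisons of set1Δ with WT. Among the snRNAs U2 had 126 CPM per kb, U5 59.9, U4 5.64, U1 2.32 and U6 0.535. U6 and snr62 failed the filter, with means of 2.42 and 1.46 counts per library, so nothing can be said of their changes at this depth. Of the 58 tested members, 42 had their highest mean in set1Δ at 30 °C and 34 their lowest in lsd1-ΔHMG at 37 °C, which describes the levels and is no test.

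**Figure D1:**
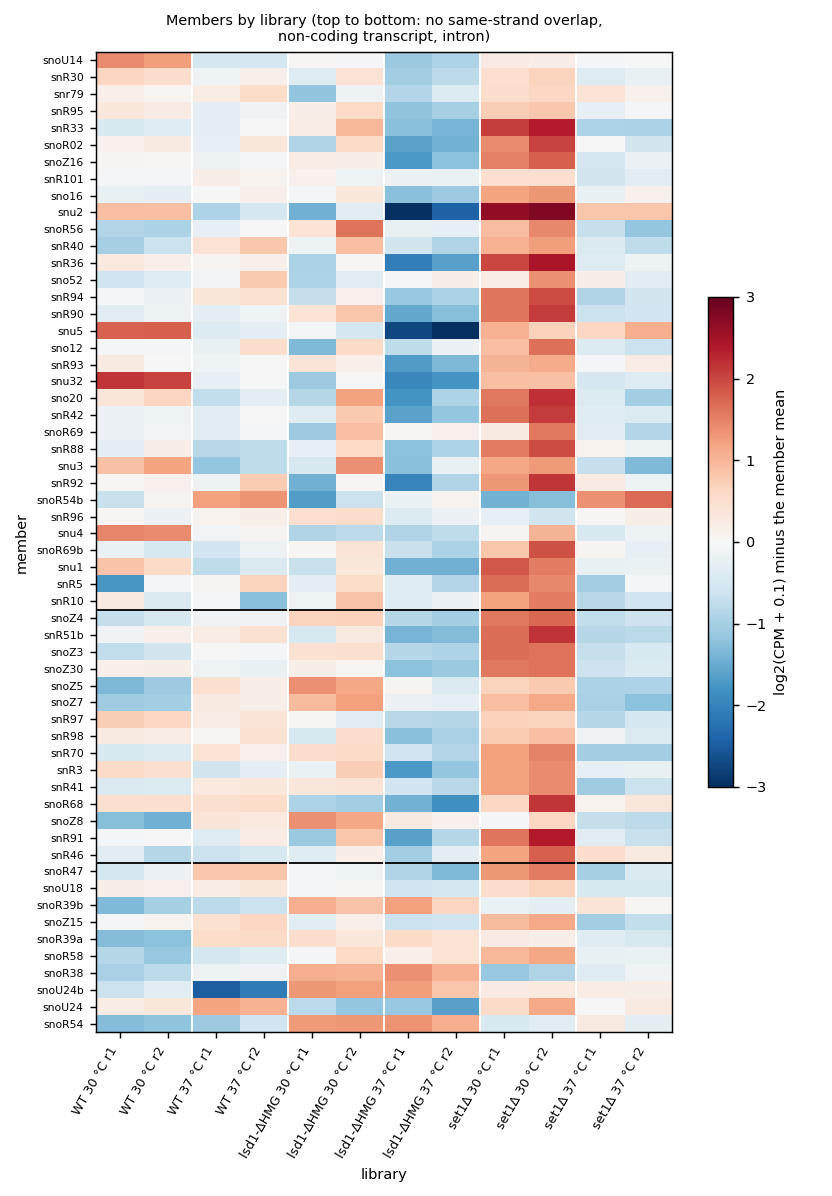
Each line is a tested member and each column a library, and the colour is log2(CPM + 0.1) minus the mean of that member, with red above and blue below it. Members are grouped from top to bottom by no same-strand overlap, non-coding transcript and intron. The set1Δ columns at 30 °C are mostly red, and 42 of 58 members had their highest mean there.

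At 30 °C most members were more abundant in set1Δ than in the WT libraries labelled 30 °C. Whether the loss of Set1 was the cause was not tested. Of the 58 tested, 36 were called higher and 3 lower, while 21.1% of all features were called higher and 11.6% lower. Members had a median change of 1.48 on the log2 scale, and all features 0.22. The TMM factors of the set1Δ libraries at 30 °C were 0.754 and 0.7629, below the 0.9582 to 1.179 of the others, which raises their CPM. Without that scaling members took 0.14% to 0.16% of counts in set1Δ and 0.109% to 0.112% in WT. Of the box H/ACA snoRNAs 12 of 19 were higher and 0 lower, and of the other snoRNAs, U3 aside, 22 of 33 were higher and 2 lower. By position, 12 of 15 members in non-coding transcripts, 20 of 33 with no same-strand overlap and 4 of 10 in introns were higher.

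SnR33, a box H/ACA snoRNA, stood at 17.7 and 18.7 CPM in WT and at 103 and 126 in set1Δ at 30 °C. The groups did not overlap, and the log2 fold change was 2.66 ± 0.21 (SE, adjusted p = 1.0e-07). SnR36 stood at 12.1 and 11 CPM in WT and at 39.6 and 54 in set1Δ, a change of 2.02 ± 0.25 (adjusted p = 9.0e-06). SnoZ4, the second most abundant member per kb, was 36.6 and 42.9 CPM in WT and 180 and 198 in set1Δ, a change of 2.25 ± 0.098 (adjusted p = 1.9e-10). Larger fitted changes fell on RNAs of few counts: snR5 changed by 2.96 ± 0.72 and snR46 by 2.81 ± 0.54, with means of 9 and 7.67 counts per library.

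The snRNAs and the processome snoRNAs did not follow 1 direction. U2 stood at 22.9 and 22.9 CPM in WT and at 77.4 and 83.7 in set1Δ, a log2 fold change of 1.81 ± 0.27 (adjusted p = 8.9e-05), and U1, at 0.521 and 0.413 against 1.16 and 0.905, changed by 1.14 ± 0.37 (adjusted p = 0.011). U5 and U4 had lower values in set1Δ, with changes of -0.92 and -0.89 that fell short of the fold limit. U14 fell from 231 and 204 CPM to 101 and 98.6, by 1.12 on the log2 scale (adjusted p = 2.5e-08). The U3 copy snu32 stood at 33.8 and 31.3 CPM in WT and at 14.2 and 13.9 in set1Δ, a change of -1.21 ± 0.23 (adjusted p = 0.00029), whereas the other copy, snu3, had 9.24 and 11.3 against 11.2 and 12.2 and did not pass the test. The longest identical stretch of the 2 U3 copies was 31 bases in genes of 256 and 255 bases. SnR30, at 289 and 265 CPM against 262 and 290, overlapped between the groups. The U1 call was lost in 5 alternative settings, among them DESeq2 (1.08). Under offsets for GC content and length U2 changed by 0.96 and U1 by 0.20, both under the fold limit, and 23 members were higher and 5 lower in all. U14 came to between -0.97 and -0.93 without any of 4 libraries.

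**Figure D2:**
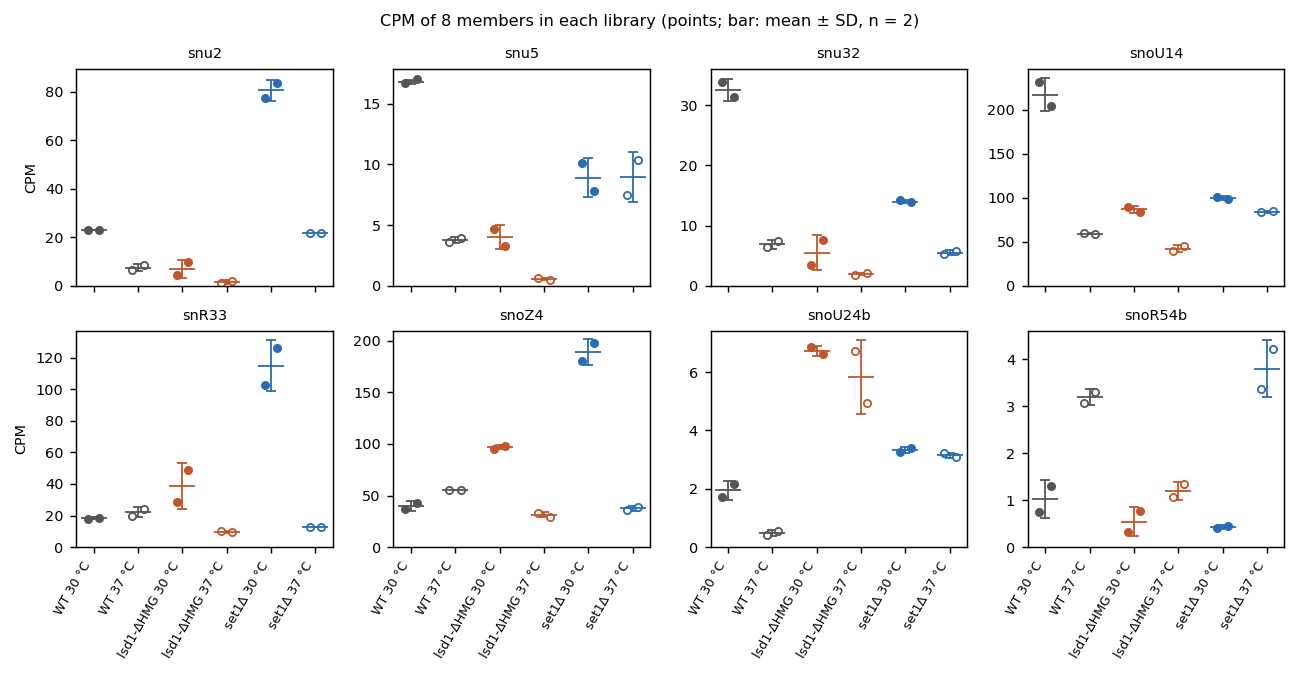
CPM of 8 members in each condition on linear axes from 0, with a point for each library, filled at 30 °C and open at 37 °C, and bars for the mean ± SD (n = 2). U2, snR33 and snoZ4 peak in set1Δ at 30 °C, U5, U3B (snu32) and U14 in WT at 30 °C, snoU24b in lsd1-ΔHMG, and snoR54b is higher at 37 °C than at 30 °C in each strain.

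After the shift to 37 °C most members were lower in set1Δ. The comparison of set1Δ with WT at 30 °C used the same set1Δ libraries at 30 °C, so these results are not independent. The comparison of set1Δ at 37 °C with set1Δ at 30 °C does not contrast WT means. In it 42 of 58 members were called lower and 1 higher, and 20.9% of all features were called lower and 11.4% higher. The median change was -1.75 for members and 0.033 for all features. All 15 tested members in non-coding transcripts were lower, as were 23 of 33 with no same-strand overlap and 4 of 10 in introns. After a correction for GC content and gene length fitted across features, 23 were lower and 5 higher. Members made up 39.2% of the 125 features of at most 300 bases that this fit used, so the length trend at the short end was drawn partly from the members, and with offsets for GC content alone 44 were lower and 2 higher.

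SnR33 stood at 103 and 126 CPM in set1Δ at 30 °C and at 12.8 and 12.6 at 37 °C, and fell by 3.18 on the log2 scale (SE 0.21, adjusted p = 1.9e-08). SnR51b, which lies in a precursor with snR41 and snR70, went from 55.2 and 78 CPM to 9.41 and 9.72, a change of -2.80 ± 0.23 (adjusted p = 1.2e-07). U2 went from 77.4 and 83.7 CPM to 21.6 and 21.6, a change of -1.90 ± 0.27. These libraries did not overlap between temperatures. SnR10 had the lowest fitted change, -3.40 ± 0.81, with a mean of 4.93 counts per library.

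Of the 58 members 6 had a positive fitted change. SnoR54b was the 1 member called higher, at 0.401 and 0.453 CPM at 30 °C and 3.37 and 4.22 at 37 °C, so it changed by 3.15 ± 0.37 (adjusted p = 2.3e-06). The other 5 were not called: snoR38 changed by 0.81, snR96 by 0.52, snoR39b by 0.47, snoR54 by 0.43 and U5 by 0.01. U5, at 10.1 and 7.78 CPM at 30 °C and 7.52 and 10.4 at 37 °C, overlapped. U14 was lower, but by little: it stood at 101 and 98.6 CPM at 30 °C and at 83.4 and 84.5 at 37 °C, a change of -0.25 that is under the fold limit.

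In lsd1-ΔHMG the shift to 37 °C also went with lower levels. There 31 of 58 members were called lower and 1 higher, and 10.5% of all features were called lower and 4.48% higher. The median change was -1.19 for members and 0.047 for all features. U2 went from 4.4 and 9.7 CPM to 1.15 and 2.16, a log2 fold change of -2.08 ± 0.37 (adjusted p = 0.00047). U5 went from 4.72 and 3.31 CPM to 0.64 and 0.493, a change of -2.82 ± 0.28 (adjusted p = 1.2e-06), and U1, at 0.117 and 0.331 against 0.0267 and 0.0274, changed by -2.84 ± 0.78. The groups did not overlap for any of these 3, while U4 did not pass the test. U1 rested on few counts, 4 and 9.5 at 30 °C and 1 and 1.33 at 37 °C. The member called higher was again snoR54b, at 0.321 and 0.761 CPM against 1.07 and 1.34. It changed by 1.18 ± 0.37, and by 0.66 without replicate 1 at 30 °C, where the call was lost. U1 lost its call (-1.96) without replicate 2 at 30 °C. Without replicate 1 of lsd1-ΔHMG at 30 °C, 34 members were lower and 0 higher, and without its replicate 2, 20 were lower and 2 higher. With offsets for GC content and length 10 were lower and 3 higher.

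In WT fewer members differed between the libraries labelled 37 °C and 30 °C than in either mutant. Of 58, 7 were called higher (12.1%) and 8 lower (13.8%), and 5.55% of all features were called higher and 15.9% lower. The share called lower was near that of all features. The median change was 0.16 for members and -0.041 for all features. U1, U2 and snu32, called lower here, were also called lower with heat in both mutants. SnoR54b was called higher in each strain. Others went against the mutants: snR40, snoZ5, snoZ7, snoZ8 and snoR47, called higher here, were called lower with heat in both mutants. SnoZ8 changed by 1.80 in WT and by -1.09 in lsd1-ΔHMG, and snR40 by 1.46 and -1.20. Without replicate 2 of WT at 37 °C the median of members was -0.0085. All 4 tested snRNAs and both U3 copies were called lower at 37 °C, but U1 was not called with DESeq2 (-1.84), with offsets for GC content alone (-0.66) or for GC content and length (-0.85), or without replicate 1 at 37 °C (-1.45). The U3 copy snu3 was not called without replicate 2 at 30 °C (-1.87) or replicate 1 at 37 °C (-1.71). U14 stood at 231 and 204 CPM at 30 °C and at 59.5 and 59.3 at 37 °C, a log2 difference of -1.87 ± 0.084 (adjusted p = 5.7e-10). Snu32 went from 33.8 and 31.3 CPM to 6.38 and 7.46, a change of -2.24 ± 0.24 (adjusted p = 2.3e-06), and U5 from 16.7 and 17 to 3.6 and 3.96, a change of -2.16 ± 0.21. The 7 higher members were snoRNAs without a box class, among them snoR39a at 1.94 and 2.06 CPM against 7.28 and 7.37 (1.87 ± 0.17), snoZ8 at 1.01 and 0.901 against 3.42 and 3.21 (1.80 ± 0.25) and snoR54b at 0.745 and 1.31 against 3.06 and 3.31 (1.63 ± 0.30). Under offsets for GC content and length snoZ8 came to 0.95, and with offsets for GC content alone U14 came to -0.91, both under the fold limit.

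**Figure D3:**
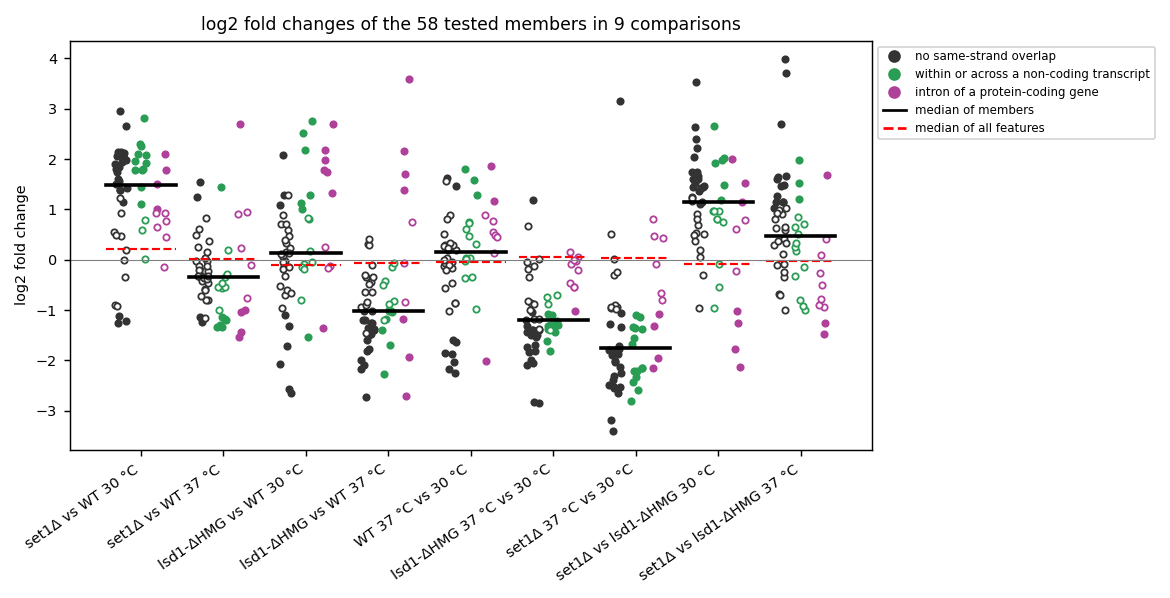
Log2 fold changes of the 58 tested members in 9 comparisons, with colour for position, filled points for members called and open points for the rest, a black line for the median of members and a dashed red line for the median of all features. The medians of members and of all features are 1.48 and 0.22 for set1Δ against WT at 30 °C, and -1.75 and 0.033 for heat within set1Δ.

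Against WT at 30 °C, members went in both directions in lsd1-ΔHMG. Of 58 members 15 were called higher (25.9%) and 8 lower (13.8%), near the 24.4% of all features called higher and 18.1% lower. The median change was 0.14 for members and -0.11 for all features. That of members was -0.19 without replicate 2 of lsd1-ΔHMG at 30 °C, 0.48 without its replicate 1, and -0.039 with TMM factors from protein-coding genes, where that of all features was -0.29. Of the 10 members in introns 6 were higher and snoU24 was lower (-1.36 ± 0.30). SnoR54 stood at 0.708 and 0.751 CPM in WT and at 4.72 and 4.8 in lsd1-ΔHMG, a log2 fold change of 2.70 ± 0.26 (adjusted p = 2.9e-07). SnoZ8 stood at 1.01 and 0.901 CPM against 6.88 and 5.96, a change of 2.75 ± 0.24 (adjusted p = 8.4e-08), and snoZ5 at 4.84 and 5.86 against 32.9 and 28, a change of 2.51 ± 0.18.

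All 4 tested snRNAs were called lower in lsd1-ΔHMG at 30 °C, and the call of U1 depended on the setting. U4 stood at 1.79 and 1.73 CPM in WT and at 0.262 and 0.298 in lsd1-ΔHMG, a log2 fold change of -2.64 ± 0.34 (adjusted p = 5.7e-06). Snu32 stood at 33.8 and 31.3 CPM against 3.5 and 7.55, a change of -2.57 ± 0.24 (adjusted p = 3.2e-07), and U5 at 16.7 and 17 against 4.72 and 3.31, a change of -2.06 ± 0.21. The groups did not overlap for these 3. U14, at 231 and 204 CPM against 90 and 84.3, changed by -1.32 ± 0.083. U1 changed by -1.09 ± 0.46, and was not called in 13 alternative settings, among them DESeq2 (-1.06), no filter on low counts (-1.08), a fit of only the libraries compared (-0.99), and the omission of replicate 1 of lsd1-ΔHMG at 30 °C (-0.49) or of any of 9 other libraries (-1.24 to -0.91). Without replicate 1 of lsd1-ΔHMG at 30 °C 17 members were higher and 7 lower, and without its replicate 2, 11 were higher and 17 lower.

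At 37 °C lsd1-ΔHMG had less of 29 members than WT and more of 4, and 15.4% of all features were called lower and 25.4% higher. The median change was -1.02 for members and -0.058 for all features. The 4 higher members were all in introns, and 3 of the 10 intron members were lower. SnoU24b stood at 0.412 and 0.562 CPM in WT and at 6.72 and 4.93 in lsd1-ΔHMG, a log2 fold change of 3.59 ± 0.24 (adjusted p = 6.2e-09), and snoR54, snoR39b and snoR38 changed by 2.16 ± 0.24, 1.71 ± 0.21 and 1.38 ± 0.17. SnoU24, in an intron of spt20, went the other way, at 3.09 and 2.78 CPM against 0.533 and 0.356, a change of -2.71 ± 0.28, and snoR47 and snoZ15 changed by -1.94 ± 0.20 and -1.17 ± 0.17. Of the 33 members with no same-strand overlap 18 were lower and 0 higher. U5 stood at 3.6 and 3.96 CPM against 0.64 and 0.493 (-2.73 ± 0.28) and snoR68 at 3.45 and 3.59 against 0.853 and 0.602 (-2.26 ± 0.43). After a correction for GC content and length 14 were higher and 14 lower. Under these offsets snoU24 came to -0.71 and snoR68 to -0.26, under the fold limit, and with offsets for GC content alone snoR39b came to 0.061.

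At 37 °C set1Δ differed from WT in fewer members. Of 58 tested, 4 were called higher and 12 lower, and 18.7% of all features were called higher and 5.53% lower, with a median change of -0.35 for members and 0.0081 for all features. Under offsets for GC content and length these medians were 0.11 and 0.17, so the direction turned. SnoU24b stood at 0.412 and 0.562 CPM in WT and at 3.21 and 3.09 in set1Δ, a log2 fold change of 2.70 ± 0.26 (adjusted p = 4.4e-07). U2 stood at 6.38 and 8.46 CPM against 21.6 and 21.6, a change of 1.55 ± 0.29, and U5 at 3.6 and 3.96 against 7.52 and 10.4, a change of 1.25 ± 0.21. SnR46 was the other, at a mean of 7.67 counts per library, and its call was lost with DESeq2 (1.43) or without any 1 of the 4 libraries compared. The largest falls were in snoR47, at 15.2 and 15.4 CPM against 4.27 and 6.29 (-1.53 ± 0.19), snoZ15, at 11.9 and 13.3 against 4.14 and 5.13 (-1.44 ± 0.18), and snR70, at 7.13 and 5.84 against 2.57 and 2.55 (-1.34 ± 0.18). With offsets for GC content and length U2 came to 0.84 and snoZ15 to -0.76, and with offsets for GC content alone U2 came to 0.31. U5 came to 0.99 without replicate 2 of set1Δ at 37 °C. Each of these values is under the fold limit.

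The mutants were also compared directly. WT means do not enter these contrasts, but the WT libraries share the scaling and the estimate of spread. At 30 °C set1Δ had more of 30 members than lsd1-ΔHMG and less of 4, and 25.5% of all features were called higher and 19.4% lower. The median change was 1.14 for members and -0.077 for all features. The TMM factors were 0.7629 and 0.754 in set1Δ and 1.031 and 1.02 in lsd1-ΔHMG, which widens the difference in CPM. Without that scaling members took 0.14% to 0.16% of counts in set1Δ and 0.0952% to 0.125% in lsd1-ΔHMG. The 4 lower members, snoR38, snoR54, snoR39b and snoU24b, were all in introns. Under offsets for GC content alone snoR39b (-0.53) and snoU24b (-0.47) were under the fold limit. The snoU24b call was lost in 8 settings in all. Among them were TMM factors from protein-coding genes (-0.88) and a fit of only the libraries compared (-0.97). U2 stood at 4.4 and 9.7 CPM in lsd1-ΔHMG and at 77.4 and 83.7 in set1Δ, a log2 fold change of 3.53 ± 0.30 (adjusted p = 6.1e-07). SnoR68 changed by 2.65 ± 0.40 and snR36 by 2.63 ± 0.26. The set1Δ replicates of snoR68 stood far apart, at 3.79 and 11 CPM, against 1.22 and 1.13 in lsd1-ΔHMG. Without replicate 1 of lsd1-ΔHMG at 30 °C 23 were higher and 3 lower, and without its replicate 2, 36 were higher and 5 lower.

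At 37 °C 17 members were higher in set1Δ than in lsd1-ΔHMG and 2 lower, against 11.4% and 12% of all features, and the medians were 0.47 and -0.033. The 3 largest increases were in snRNAs. U5 stood at 0.64 and 0.493 CPM in lsd1-ΔHMG and at 7.52 and 10.4 in set1Δ, a log2 fold change of 3.98 ± 0.27 (adjusted p = 2.1e-08). U2 stood at 1.15 and 2.16 CPM against 21.6 and 21.6, a change of 3.71 ± 0.35 (adjusted p = 2.3e-06). U1 changed by 2.69 ± 0.79, but had only 1 and 1.33 counts in the lsd1-ΔHMG libraries. U4 did not pass the test. Without replicate 1 of lsd1-ΔHMG at 37 °C 10 were higher and 2 lower.

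Whether the temperature response differed between a mutant and WT was tested as an interaction, which rests on the WT labels. For lsd1-ΔHMG 25 members had a more negative response and 2 a more positive one, beside 6.42% and 12% of all features, and the medians were -1.03 and 0.13. For set1Δ 36 members had a more negative response and 4 a more positive one, beside 17.9% and 18.9% of all features, and the medians were -1.72 and 0.037. SnoZ7 rose in WT (1.28) and fell in set1Δ (-2.15), a difference of -3.43 on the log2 scale (adjusted p = 6.5e-09). After a correction for GC content and length, 13 members were more negative and 4 more positive for lsd1-ΔHMG.

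Members inside a longer transcript were set beside that transcript. Of the 15 in or across a non-coding transcript, 14 had their host in the count table, in 8 host features. The host snoZ stood at a mean of 72.2 CPM in WT and 279 in set1Δ at 30 °C (log2 fold change 1.95, adjusted p = 4.1e-10), and its members snoZ3, snoZ4, snoZ5, snoZ7 and snoZ8 changed by 2.30, 2.25, 1.96, 2.09 and 1.79. Reads on these stretches were divided between host and member, so they are not independent measurements. Over the 8 hosts the median change in set1Δ against WT at 30 °C was 1.18, and over their 14 members 1.80.

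Intron members were set beside their hosts in the same way. Over the comparisons the sign of the host was shared by 5 to 9 of 10 intron members and by 9 to 14 of 14 members in non-coding hosts, and the difference between these contexts was not tested. In set1Δ at 37 °C against 30 °C the median change was -0.72 over the 10 intron members and 0.28 over their 10 hosts, and the sign was shared by 7 of 10. SnoU24b lies in cpc2, which encodes a ribosomal scaffold protein, and cpc2 stood at a mean of 70.2 CPM in WT and 1216 in lsd1-ΔHMG at 37 °C (log2 fold change 4.11, adjusted p = 1.3e-10), beside 3.59 for snoU24b. SnoR39b lies in the ribosomal protein gene rpl701 and snoR54 in gua1, an enzyme of guanine nucleotide synthesis, and these hosts changed in lsd1-ΔHMG against WT at 30 °C by 1.93 and 2.35, beside 2.17 and 2.70 for the members. SnoR39a lies in rlp7, and there the host changed by -0.90 where the member changed by 1.74. With offsets for GC content and length snoR39a came to 0.53 and snoR39b to 0.77 in that comparison.

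**Figure D4:**
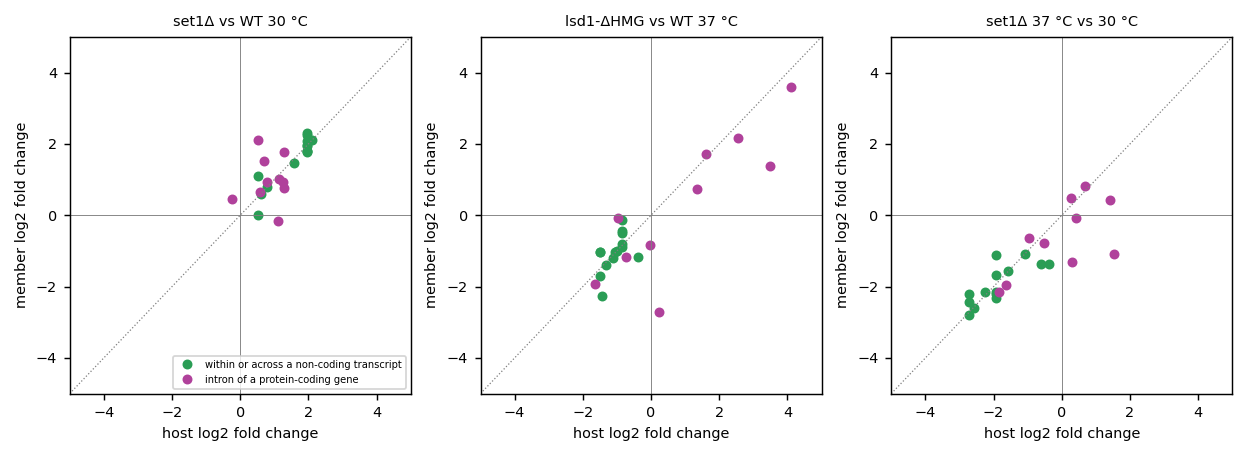
Log2 fold change of each member in a longer transcript against that of its host, in 3 comparisons, in green for non-coding hosts and purple for introns of protein-coding genes, with a dotted line where both are equal. In set1Δ against WT at 30 °C all 14 members of non-coding hosts have the sign of their host, and in the heat comparison within set1Δ 7 of 10 intron members do.

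The proteins that bind and process these RNAs were read from lists of the pathway. In set1Δ 21.1% of all features were called higher than in WT at 30 °C, and 20.9% lower after heat. Of the Sm ring, which binds U1, U2, U4 and U5, 4 of 7 genes were higher in set1Δ than in WT at 30 °C and 0 lower, with a median of 1.18 beside 0.22 for all features. Within set1Δ 4 of 7 were lower at 37 °C, led by smg1 (-2.11 ± 0.11) and smd1 (-1.95 ± 0.088). Of the Lsm2-8 ring of U6, 2 of 7 were higher in set1Δ at 30 °C, near the share of all features, and 3 of 7 lower after heat. Of the 4 box H/ACA core proteins, nhp2 and nop10 were higher in set1Δ at 30 °C (1.49 ± 0.094 and 1.30 ± 0.16) and lower after heat (-2.47 ± 0.097 and -2.13 ± 0.17). Of the 4 box C/D core proteins, snu13 and fib1, the methyltransferase fibrillarin, were higher in set1Δ at 30 °C (1.30 ± 0.10 and 1.01 ± 0.11). After heat in set1Δ 1 of these 4 was lower and 0 higher, with a median of 0.13 beside 0.033 for all features.

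The counts of the next lists stand beside the following shares of all features: 21.1% higher and 11.6% lower in set1Δ against WT at 30 °C, 20.9% lower and 11.4% higher for heat in set1Δ, and 24.4% higher and 18.1% lower at 30 °C and 25.4% higher and 15.4% lower at 37 °C in lsd1-ΔHMG against WT. Of 20 genes of the nuclear exosome and its cofactors, 3 were higher and 3 lower in set1Δ than in WT at 30 °C, and 7 were lower and 1 higher after heat in set1Δ, led by cti1 (-2.38 ± 0.078) and pab2 (-2.11 ± 0.082). Of 21 genes of 3′ end processing and termination, 10 were higher and 0 lower in lsd1-ΔHMG at 30 °C and 11 and 0 at 37 °C, with fip1, a subunit of the polyadenylation machinery, at 3.29 ± 0.20 and 5.91 ± 0.24. Of 9 snRNA maturation factors, 5 were lower in lsd1-ΔHMG at 30 °C, among them smn1 (-1.38 ± 0.076) and bmc1 (-1.35 ± 0.10). Of 16 tested proteins specific to snRNPs, 6 were higher and 3 lower in lsd1-ΔHMG at 37 °C, with the U5 protein gene cwf10 at 3.57 ± 0.20. Of 7 snoRNP assembly factors, naf1 was higher in lsd1-ΔHMG at 30 °C (1.35 ± 0.15) and bcd1 lower (-1.58 ± 0.073). In set1Δ against WT at 30 °C 0 of the 16 snRNP proteins were called. There 1 of 9 maturation factors was higher, and 1 of 7 assembly factors was lower. After heat in set1Δ 1 of the 16 and 1 of the 9 were lower, and 0 of the 7 were called. Of the 21 genes of 3′ end processing, 1 was higher and 1 lower in set1Δ at 30 °C, and 3 were higher and 1 lower after heat.

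Other stable RNAs that are not messengers gave a scale for the members. The RNA of RNase MRP, mrp1, stood at a mean of 35.6 CPM in WT and 107 in set1Δ at 30 °C (1.59 ± 0.10) and at 27.4 in set1Δ at 37 °C (-1.96 ± 0.11 against 30 °C). The RNase P RNA rrk1 stood at 91.8, 207 and 56.5 CPM in the same groups. The telomerase RNA ter1 stood at 47.6, 38.8 and 55.1 CPM. The signal recognition particle RNA srp7 stood at 1.68, 1.5 and 1.17 CPM and was called in neither comparison (-0.16 and -0.36). All 60 members together summed to 1150 ± 28.3 CPM in WT at 30 °C, 1979 ± 204 in set1Δ at 30 °C and 744 ± 22.6 in set1Δ at 37 °C (SD, n = 2). Ribosomal RNA features, whose share moves with rRNA removal or poly(A) selection in library making, took 0.452% to 0.48% of counts in WT at 30 °C, 2.08% to 2.12% in lsd1-ΔHMG at 30 °C and 0.92% to 1.03% in set1Δ at 30 °C. At 37 °C they took less in each strain: 0.252% in both WT libraries, 0.844% to 0.872% in lsd1-ΔHMG and 0.38% to 0.553% in set1Δ. Their part in the differences between strains or between temperatures was not tested. In bulk RNA, fewer cells with an RNA and less of it per cell cannot be told apart, and mature and precursor forms were not separated by these counts.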

How the data were processed

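Libraries were strand-specific and described as mRNA libraries in the study's methods, which do not state poly(A) selection. Per the labels and methods, the authors trimmed reads with Trimmomatic 0.39, aligned them with STAR to ASM294v2, separated strands with SAMtools and counted genes with featureCounts, dividing reads among overlapping features. The deposited values are expected counts, of which 73.65% to 83.63% per library are not whole, and they were rounded for the tests. Of 34 value columns 12 were used and 22 were not.

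All 12 libraries were fitted with edgeR 4.0.16 (TMM factors, filterByExpr by condition, robust quasi-likelihood, Benjamini-Hochberg over 6904 features) in R 4.3.3, for 11 contrasts. DESeq2 1.42.0, limma 3.58.1 and GC and length smooths from mgcv 1.9.3 gave alternatives. The fit was checked on simulated counts. Replicates are described as independently derived. Named members were every snRNA, both U3 copies, U14, snR30, the 5 highest per kb and those failing the filter. Added to these in each comparison were the 3 called members with the largest and the 3 with the smallest fold change. For the interactions all called members were eligible, and elsewhere only those whose libraries did not overlap. A few others are named where a group was listed in full or beside its precursor. Of the lists, at most 3 called genes per comparison were named. The members and lists were chosen with earlier results of these data known. Sequences came from RefSeq ASM294v3, matched by identifier for 60 of 60 members.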

Additional observations from a re-analysis of the deposited data

Results flagged for a closer look

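Responses to 37 °C differed between a mutant and WT by the interaction test for the members named by the rule, and all of these values rest on the WT temperature labels that hsp16 went against. For lsd1-ΔHMG, snoZ5 went from 1.59 in WT to -1.43 in the mutant on the log2 scale, a difference of -3.02 (edgeR adjusted p = 6.5e-07). SnoZ8 differed by -2.89 (1.80 in WT, -1.09 in lsd1-ΔHMG) and snR40 by -2.66 (1.46 and -1.20). In the other direction U4 differed by 1.62 (-1.59 and 0.023; no longer called with DESeq2, or without any of 3 libraries, where it was 1.37 to 1.53) and snoU24b by 1.80 (-2.01 and -0.21). The 2 replicates of lsd1-ΔHMG at 30 °C, which enter these values, differed more between themselves than those of any other condition.

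For set1Δ, snR5 differed by -4.11 (1.57 in WT, -2.55 in set1Δ) at a mean of 9 counts per library. SnR33 differed by -3.46 (0.28 and -3.18) and snoZ7 by -3.43 (1.28 and -2.15). U14 differed by 1.62 (-1.87 and -0.25), snoU24b by 1.93 (-2.01 and -0.077) and U5 by 2.17 (-2.16 and 0.01). With offsets for GC content alone the U14 difference was 0.41 and no longer called.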

How the results depend on the processing

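Of the 11 counts of members called, the stricter limits moved 11 by over 1.5 times, counting only members with no same-strand overlap 10, no fold limit 3, and offsets for GC content and length 3. At the stricter limits (adjusted p 0.0001, log2 change 2) the counts were 8 and 4 for lsd1-ΔHMG against WT at 30 °C and 37 °C, 8 and 1 for set1Δ against WT, 3, 2 and 15 for heat in WT, lsd1-ΔHMG and set1Δ, 7 and 2 for set1Δ against lsd1-ΔHMG, and 8 and 17 for the interactions. Over only the 33 tested members with no same-strand overlap they were 9, 18, 23, 4, 9, 20, 24 and 21 in that order up to set1Δ against lsd1-ΔHMG at 30 °C, and 13 and 20 for the interactions, where fewer members were counted. With no fold limit they were 27 for set1Δ against WT at 37 °C, 29 for heat in WT and 35 for set1Δ against lsd1-ΔHMG at 37 °C.

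With offsets for GC content and length 13 members were called for heat in lsd1-ΔHMG, 28 for heat in set1Δ and 17 for the lsd1-ΔHMG interaction. The medians of members were then 0.41 and -0.26 for lsd1-ΔHMG against WT at 30 °C and 37 °C, 0.74 and 0.11 for set1Δ against WT, 0.017, -0.57 and -0.84 for heat in WT, lsd1-ΔHMG and set1Δ, 0.44 and 0.15 for set1Δ against lsd1-ΔHMG, and -0.44 and -0.78 for the interactions. Offsets for GC content alone, chosen after seeing the data, kept all 11 counts within 1.5 times. Of 365 called values of single genes, 193 of them of members, the offsets for GC content and length turned 14 in sign and ended 105, and GC content alone turned 5 and ended 75. The cause was not tested. In lsd1-ΔHMG against WT at 37 °C the turned values were smn1 0.17, nop10 0.047, smd3 0.38, smg1 0.31 (GC alone 0.23), snR51b 0.029, snoR54b 0.48 and snR33 0.62, and at 30 °C nop10 0.034. SnoU24 came to 0.45 in the lsd1-ΔHMG interaction and to 0.15 (GC alone 0.084) in set1Δ against WT at 37 °C, and snoR68 to 0.14 in the set1Δ interaction. The RNA srp7 came to 0.42 (GC alone 0.45) for heat in WT, -1.12 (-1.46) in the set1Δ interaction and -1.65 (-1.89) in set1Δ against WT at 37 °C. The other settings, apart from leaving out libraries, turned 0 values and ended 85.

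Leaving out 1 library gave 22 to 28 and 26 to 33 for lsd1-ΔHMG against WT, 34 to 43 and 12 to 17 for set1Δ against WT, 15 to 16, 22 to 34 and 37 to 48 for heat in WT, lsd1-ΔHMG and set1Δ, 26 to 41 and 12 to 26 for set1Δ against lsd1-ΔHMG, and 23 to 32 and 31 to 42 for the interactions. The lone library was assumed to vary like the other groups.

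Same-numbered replicates deviated together with correlations from -0.261 to 0.519, over 0.1 in 9 of 15 pairs of conditions. In each condition more members were higher in replicate 2 than in replicate 1, from 33 to 48 of 58. The main fit did not use the numbers as pairs, and a replicate block was the alternative. With a replicate block the counts were 23, 34, 40, 16, 15, 34, 43, 34, 19, 28 and 40.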
